A study of Homo sapiens with 9 samples.

Results

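This comparison set human definitive endoderm cultures treated with either of 2 metabolic inhibitors against the same cultures without inhibitor. The members were the 3 C75 libraries and the 3 ETO libraries, with equal weight for each inhibitor, against the 3 DE libraries. All 9 libraries of the series were used. The question was which genes moved to the same side of the uninhibited cultures with both inhibitors, one directed at fatty acid synthesis and the other at fatty acid oxidation.

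HUES8, a wild-type and established line of human embryonic stem cells, was used for all RNA sequencing libraries. In all 3 groups the cells were grown on Matrigel and given activin A at 100 ng/mL, Wnt-3a at 50 ng/mL and 0.2% fatty acid free albumin. Wnt-3a was withdrawn after 2 days. The DE group received no inhibitor. The C75 group received C75, an inhibitor of fatty acid synthase. The ETO group received ETO, an abbreviation not spelled out in the labels. It is taken here as etomoxir, which blocks fatty acid oxidation. Dose, vehicle and time of treatment are not in the labels, nor is the source of the 3 libraries of a group. If those are not separate cultures, the spread behind each p-value is technical.

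Fatty acid synthase builds long-chain fatty acids from acetyl and malonyl units, while oxidation in mitochondria starts with carnitine palmitoyltransferase, which moves the fatty acid into the organelle. Definitive endoderm arises from pluripotent cells through a primitive streak state under NODAL or activin signalling, and later forms gut, liver and pancreas. Cells that lack sterols or certain lipids are known to process SREBP transcription factors, which raise genes of sterol and fatty acid synthesis.

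Library totals ran from 17379711 to 21510997 counts, and 14177 genes passed the filter on low counts. The DE libraries carried the endoderm gene SOX17 at 769, 777 and 733 CPM (counts scaled to the TMM-adjusted library size) and the pluripotency gene POU5F1 at 271, 299 and 314 CPM. The first principal component held 79.7% of the variance and placed DE between the inhibitors. The second held 10.7% and separated the 3 DE libraries from the 6 inhibitor libraries.

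Both inhibitors together moved 2263 genes to 1 side of DE, most of them by small amounts. A gene was called in the averaged contrast (the mean of C75 and ETO minus DE) at an adjusted p below 0.05 in edgeR's quasi-likelihood test. This called 3418 genes higher (24.1% of the genes tested) and 3798 lower (26.8%). The averaged contrast also calls genes moved by a single inhibitor, so the order of the libraries was added as a second condition. All 6 inhibitor libraries lay above all 3 DE libraries for 1089 genes (7.68%), and below them for 1235 (8.71%). Both conditions held for 1050 genes that were higher (7.41%) and 1213 that were lower (8.56%), and these 2263 genes are called the shared response here. They made up 31.4% of the genes called, and the other 4953 called genes had inhibitor and DE libraries that overlapped or lay on both sides of each other.

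Most shared changes were small. The median averaged log2 fold change was 0.36 (quartiles 0.23 and 0.59) among the shared higher genes and −0.40 (quartiles −0.63 and −0.26) among the shared lower genes. At least 0.5 on the log2 scale with each inhibitor was reached by 196 higher genes (1.38%) and 220 lower genes (1.55%). At least 1 with each inhibitor was reached by 47 (0.332%) and 42 (0.296%). In a fit that treated the 6 inhibitor libraries as 1 group, so that the difference between the inhibitors entered the error, 272 genes were called higher (1.92%) and 323 lower (2.28%). Tested with glmTreat for changes beyond 0.5 on the log2 scale, 199 genes were higher (1.4%) and 390 lower (2.75%), of which 146 and 226 were shared.

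The order rule does not ask for a call with each inhibitor alone. C75 against DE called 4422 genes higher (31.2%) and 4523 lower (31.9%), and ETO against DE called 4916 higher (34.7%) and 4997 lower (35.2%). Of the 1050 shared higher genes, 104 were not called with C75 alone and 77 were not called with ETO alone. Of the 1213 shared lower genes, 121 were not called with C75 alone and 85 were not called with ETO alone. The 2 comparisons use the same DE libraries, so a chance deviation of DE would enter both.

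**Figure D1:**
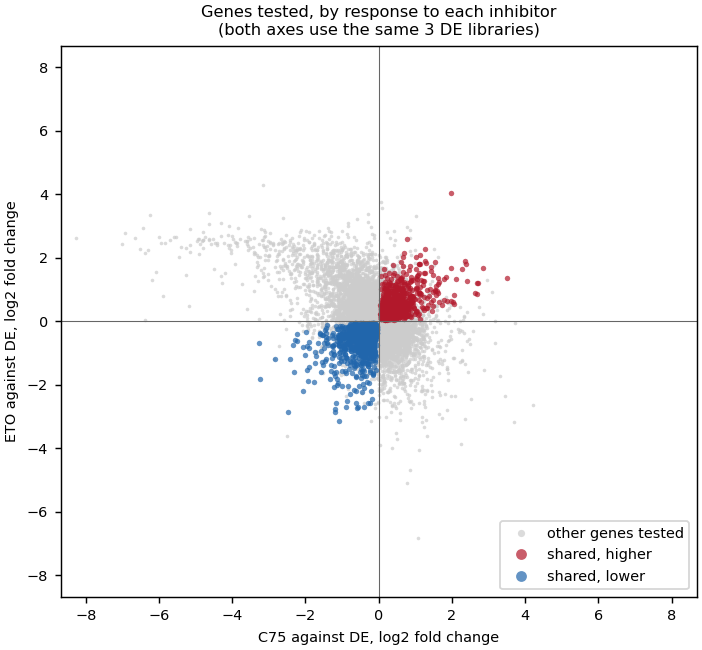
Each point is 1 gene, with its log2 fold change in C75 against DE on the horizontal axis and in ETO against DE on the vertical axis. Red points are the shared higher genes and blue points the shared lower genes, and many of the other genes, in grey, lie in the 2 quadrants where the inhibitors moved them opposite ways. Both axes use the same DE libraries, so the plot gives no measure of agreement.

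The direct test of C75 against ETO called 11224 of all genes tested (79.2%). It called 633 of the 1050 shared higher genes (60.3%), of which 257 were higher with C75 and 376 with ETO, and 417 were not called. Of the 1213 shared lower genes it called 713 (58.8%), 262 lower with C75 and 451 lower with ETO. SEPT2 was just inside, at 471, 458 and 466 CPM in DE, 471, 478 and 481 CPM with C75 and 546, 542 and 539 CPM with ETO. ZNF317 was just outside, at 37.7, 34.8 and 37.0 CPM in DE, 41.9, 40.3 and 40.6 CPM with C75 and 37.7, 39.1 and 38.1 CPM with ETO. On the lower side ECI1, a mitochondrial enoyl-CoA isomerase, was just inside at 55.7, 74.3 and 63.7 CPM in DE, 50.0, 54.5 and 55.7 CPM with C75 and 51.1, 45.5 and 54.8 CPM with ETO, and SZRD1 was just outside at 161, 178 and 156 CPM in DE, 148, 155 and 149 CPM with C75 and 153, 156 and 155 CPM with ETO.

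FASN, which encodes the enzyme that C75 inhibits, rose with both inhibitors. It stood at 1496, 1465 and 1437 CPM in DE, 1781, 1652 and 1808 CPM with C75 and 1846, 1745 and 1869 CPM with ETO. All 6 inhibitor libraries lay above the 3 DE libraries (averaged log2 fold change 0.28 ± 0.03, adjusted p = 2.0e-10), and the inhibitors did not pass the test of a difference between them (C75 against ETO −0.06, adjusted p = 0.088). CPT1A, the liver form of carnitine palmitoyltransferase, moved opposite ways and was no part of the shared response. It stood at 37.0, 40.1 and 42.5 CPM in DE, 24.2, 26.9 and 24.6 CPM with C75 and 90.5, 86.0 and 92.6 CPM with ETO, which gave log2 fold changes of −0.66 with C75 and 1.17 with ETO.

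The 12 largest shared rises had averaged log2 fold changes between 1.04 and 2.27. By the smaller of the 2 log2 fold changes, NXPH4, a neurexophilin, came first at 2.33, 1.77 and 2.01 CPM in DE, 14.8, 13.9 and 15.8 CPM with C75 and 7.22, 5.53 and 7.16 CPM with ETO (averaged log2 fold change 2.27 ± 0.14, adjusted p = 6.0e-16). The ETO libraries lay between the DE and the C75 libraries. TMEM132B followed, with log2 fold changes of 1.96 with C75 and 1.67 with ETO (averaged log2 fold change 1.82 ± 0.09, adjusted p = 4.2e-18). FAM43A stood at 4.08, 4.29 and 4.97 CPM in DE, 12.5, 11.2 and 12.1 CPM with C75 and 14.3, 13.7 and 15.5 CPM with ETO, and its lowest inhibitor library was more than 2 times its highest DE library. DAB1, an adaptor of reelin signalling, was the most abundant of the 12 genes, at 31.9, 31.5 and 33.2 CPM in DE, 73.4, 74.1 and 66.8 CPM with C75 and 81.3, 80.1 and 76.5 CPM with ETO (averaged log2 fold change 1.22 ± 0.05, adjusted p = 2.4e-21). The integrin gene ITGA3, a laminin receptor subunit, stood at 22.6, 20.0 and 21.2 CPM in DE, 60.0, 61.2 and 63.3 CPM with C75 and 40.8, 41.7 and 42.1 CPM with ETO (averaged log2 fold change 1.25 ± 0.05, adjusted p = 4.7e-20), with no overlap between any of the 3 groups. The other 7 were EPDR1, FJX1, SLCO4A1, ST8SIA3, SDK2, DPP4 and SEZ6L, with averaged log2 fold changes from 1.04 to 1.52.

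For 4 of these 12 genes the inhibitors did not pass the test of a difference. SLCO4A1, an organic anion transporter, differed by 0.07 ± 0.10 on the log2 scale between C75 and ETO (adjusted p = 0.5). ST8SIA3, a sialyltransferase, differed by −0.03 ± 0.11 (adjusted p = 0.8). EPDR1 and FJX1 differed by 0.26 and −0.25 (adjusted p = 0.081 and 0.13). The 1-group fit of the inhibitors called all 12 higher genes, beside 1.92% of all genes tested. The 12 were chosen for large changes in these same libraries, so this count is no separate support.

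The largest shared falls held an alpha-catenin, an imprinted gene and a chemokine. CTNNA2, the neural alpha-catenin, led at 13.8, 16.1 and 13.2 CPM in DE, 1.30, 1.76 and 1.43 CPM with C75 and 4.04, 4.07 and 3.91 CPM with ETO (averaged log2 fold change −2.54 ± 0.11, adjusted p = 1.5e-19). MFAP4, a microfibril-associated glycoprotein, stood at 409, 397 and 389.8 CPM in DE, 123, 112 and 122 CPM with C75 and 164, 155 and 156 CPM with ETO (averaged log2 fold change −1.54 ± 0.03, adjusted p = 2.3e-29). Both shared lower genes were lower still with C75 than with ETO. PIK3R5, a regulatory subunit of phosphoinositide 3-kinase gamma, stood at 47.8, 44.8 and 46.9 CPM in DE, 17.9, 15.1 and 14.9 CPM with C75 and 19.4, 19.4 and 18.2 CPM with ETO. ANKRD1, a cardiac ankyrin repeat gene and a YAP target, stood at 111, 114 and 121 CPM in DE, 48.7, 52.8 and 48.1 CPM with C75 and 43.2, 43.6 and 42.2 CPM with ETO (averaged log2 fold change −1.31 ± 0.04, adjusted p = 1.6e-24). For ANKRD1 the ETO libraries were the lowest and the C75 libraries came between. CCL2, a monocyte chemokine, stood at 59.3, 59.3 and 57.6 CPM in DE, 28.2, 23.0 and 26.3 CPM with C75 and 7.72, 7.18 and 9.20 CPM with ETO, falling by 1.19 with C75 and by 2.88 with ETO on the log2 scale.

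GADD45G, RIMBP2, NATD1 and VEPH1 had averaged log2 fold changes of −1.57, −1.20, −1.13 and −1.15. The channel gene TRPM2 (−1.33) and the phospholipid flippase gene ATP8A1 (−1.09) did not pass the test of a difference between the inhibitors (adjusted p = 0.61 and 0.054). The 1-group fit called 11 of the 12 lower genes and missed CCL2 (adjusted p = 0.07), beside 2.28% of all genes tested called lower. These 12 were also chosen for large changes in the same libraries, so this count is no separate support.

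**Figure D2:**
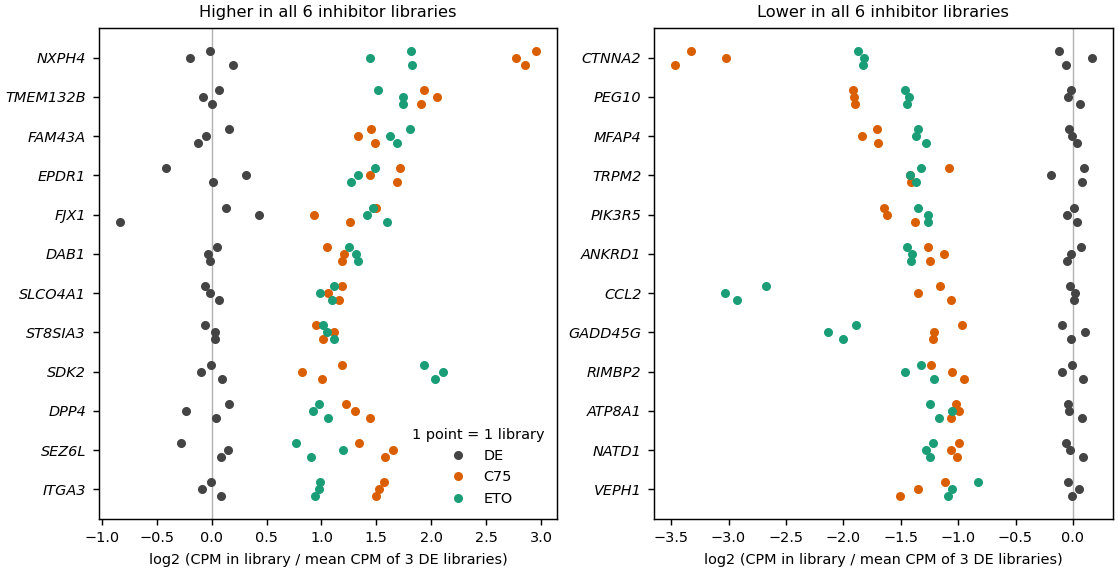
Each point is 1 library, placed by the log2 ratio of its CPM to the mean CPM of the 3 DE libraries, for the 12 shared higher genes (left) and the 12 shared lower genes (right) with the largest smaller change. In every row the 6 inhibitor libraries lie on 1 side of the 3 DE libraries, with C75 farther out for NXPH4 and CTNNA2 and ETO farther out for SDK2 and CCL2.

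PEG10 was the most abundant of the 12 largest shared falls, and it is a paternally expressed imprinted gene derived from a retrotransposon. It stood at 2089, 1936 and 1970.0 CPM in DE, 537, 534 and 530.4 CPM with C75 and 736, 743 and 723 CPM with ETO. Both inhibitors brought it far below DE, C75 further than ETO (averaged log2 fold change −1.68 ± 0.02, adjusted p = 2.7e-33; C75 against ETO −0.46, adjusted p = 9.5e-16). Its neighbour SGCE, also paternally expressed, starts within PEG10's first bases on the other strand, and it fell as well, at 42.8 ± 1.19 CPM in DE, 23.5 ± 1.30 CPM with C75 and 26.6 ± 1.13 CPM with ETO (SD, n = 3 each; averaged log2 fold change −0.78 ± 0.05, adjusted p = 1.7e-14). On GRCh38 PEG10 lies at chr7:94656325-94669695, plus strand, and SGCE at chr7:94524204-94656572, minus strand. Whether the counting used strand is not given in the sources used here, so reads from the overlap could not be assigned with certainty. Of 16 imprinted genes tested, 3 were shared higher (18.8%) and 2 shared lower (12.5%), beside 7.41% higher and 8.56% lower of all genes, and counts this small do not set the list apart. Among the higher was IGF2R, a receptor that clears insulin-like growth factor 2, at 247 ± 4.34 CPM in DE, 362 ± 10.8 CPM with C75 and 304 ± 3.52 CPM with ETO (SD, n = 3 each).

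Cholesterol synthesis and uptake genes formed one of the larger one-sided groups. Of 28 tested, 11 (39.3%) were shared higher and none shared lower, beside 7.41% and 8.56% of all genes tested. The averaged contrast called 20 higher and 4 lower, and the list's median averaged log2 fold change was 0.22 against −0.0042 over all genes. Summed over the list, levels were 5393 to 5477 CPM in DE, 6048 to 6061 CPM with C75 and 5804 to 5841 CPM with ETO, so the 6 inhibitor libraries lay above DE.

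LSS, lanosterol synthase, stood at 148, 152 and 150.4 CPM in DE, 191, 188 and 189 CPM with C75 and 199.8, 195 and 205 CPM with ETO (averaged log2 fold change 0.37 ± 0.03, adjusted p = 1.9e-12). INSIG1, which holds SREBP in the endoplasmic reticulum and is itself an SREBP target, stood at 77.6, 77.3 and 78.3 CPM in DE, 101, 104 and 101 CPM with C75 and 96.2, 101 and 93.1 CPM with ETO (averaged log2 fold change 0.36 ± 0.04, adjusted p = 3.6e-10). The difference between the inhibitors was small beside the rise in both genes, at −0.08 and 0.08 for C75 against ETO on the log2 scale (adjusted p = 0.033 and 0.079).

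Further shared higher members included FDPS, HSD17B7, ACAT2, SQLE, IDI1 and SC5D of the synthesis pathway and the lysosomal exporter gene NPC1, with averaged log2 fold changes from 0.10 to 0.47. The 1-group fit called 4 of the 11. Several enzymes of the same pathway followed 1 inhibitor, and the following were chosen after their values were seen. NSDHL changed by 0.92 with C75 and −0.25 with ETO, and MVK by 0.62 with C75 and −0.30 with ETO.

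**Figure D3:**
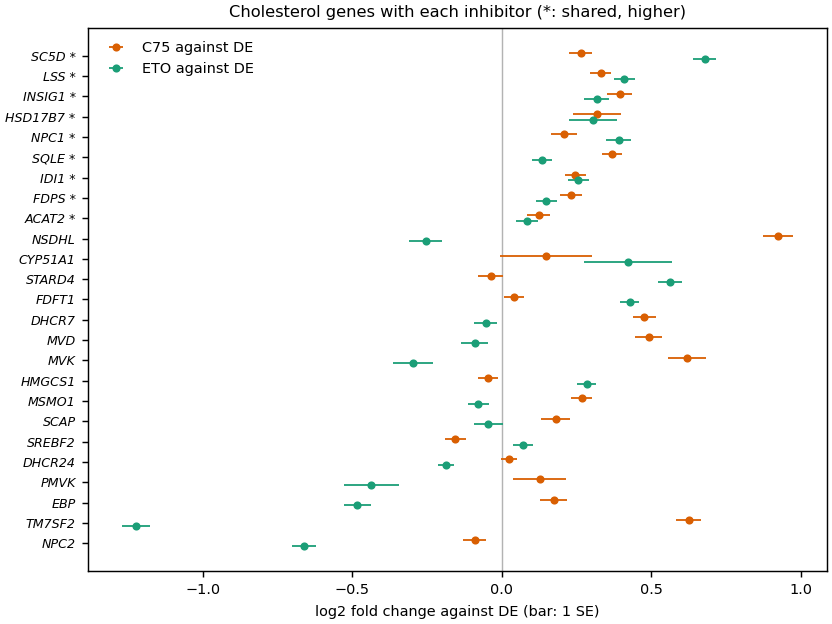
For 25 of the cholesterol genes tested, points give the log2 fold change against DE with C75 and with ETO, and bars give 1 SE of the fit. The 9 genes marked with a star lie to the right of 0 with both inhibitors, while NSDHL, MVK and TM7SF2 lie on opposite sides.

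Of 29 fatty acid synthesis genes tested, 7 were shared higher (24.1%) and 2 shared lower (6.9%), beside 7.41% higher and 8.56% lower of all genes. Their median averaged log2 fold change was 0.05, or by inhibitor 0.24 with C75 and 0.03 with ETO. Their summed level was 6138 to 6286 CPM in DE, 7276 to 7493 CPM with C75 and 7109 to 7219 CPM with ETO. ELOVL4, an elongase of very long chains, stood at 9.28 ± 0.526 CPM in DE, 14.3 ± 1.76 CPM with C75 and 12.8 ± 1.34 CPM with ETO (SD, n = 3 each; averaged log2 fold change 0.54 ± 0.09, adjusted p = 6.8e-06). The malic enzyme gene ME1, which supplies NADPH, changed by 0.57 with C75 and 0.36 with ETO, and the desaturase gene FADS1 by 0.27 with C75 and 0.36 with ETO. The 2 lower genes were HACD3, a dehydratase of chain elongation (−0.44), and the desaturase gene SCD5 (−0.46).

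Of 39 fatty acid oxidation genes, none were shared higher and 7 were shared lower (17.9%), beside 7.41% higher and 8.56% lower of all genes. The averaged contrast called 7 higher and 11 lower, beside 24.1% and 26.8% of all genes, so the lower count was near that share. The list's median was −0.04, or by inhibitor −0.01 with C75 and −0.17 with ETO. The summed level was 2256 to 2322 CPM in DE, 2471 to 2535 CPM with C75 and 2038 to 2069 CPM with ETO, so it was above DE with C75 and below DE with ETO. EHHADH, the bifunctional enzyme of peroxisomal oxidation, stood at 63.6, 63.5 and 61.9 CPM in DE, 41.5, 43.0 and 40.3 CPM with C75 and 9.40, 10.5 and 8.31 CPM with ETO. It fell with both but far more with ETO (C75 against ETO 2.14, adjusted p = 4.0e-24). HSD17B4, the other bifunctional enzyme of the peroxisome, stood at 258, 271 and 268 CPM in DE, 206, 215 and 209.8 CPM with C75 and 201, 206 and 197 CPM with ETO (averaged log2 fold change −0.37 ± 0.03, adjusted p = 6.2e-13), and CROT, peroxisomal carnitine octanoyltransferase, changed by −0.40 with C75 and −0.65 with ETO. For HSD17B4 and CROT the inhibitors did not pass the test of a difference (adjusted p = 0.091 and 0.068). After correction for GC content and length the oxidation list had 2 shared higher and 6 shared lower genes.

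Lipid storage and uptake genes were mixed. PLIN2, a coat protein of lipid droplets, stood at 49.2 ± 4.56 CPM in DE, 38.5 ± 3.05 CPM with C75 and 39.1 ± 2.47 CPM with ETO (averaged log2 fold change −0.35 ± 0.06, adjusted p = 2.6e-06), and VLDLR, a lipoprotein receptor, at 166 ± 3.71 CPM in DE, 119 ± 3.58 CPM with C75 and 106 ± 1.70 CPM with ETO (SD, n = 3 each). PNPLA3 and the lysosomal lipase gene LIPA were shared higher (0.67 and 0.46), and the triglyceride lipase gene PNPLA2 was shared lower (−0.32). NR1H2, which encodes the oxysterol receptor LXR-beta, was shared lower at −0.43.

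Transcripts of the mitochondrial genome rose with both inhibitors. All 13 protein-coding genes were called higher, and 11 (84.6%) were shared higher, beside 7.41% of all genes. The list median was 0.45, or by inhibitor 0.21 with C75 and 0.58 with ETO. Among the 11, the test of C75 against ETO called 8 higher with ETO and 1 higher with C75. MT-ND2, a subunit of complex I, stood at 1307, 1255 and 1399 CPM in DE, 1783, 1704 and 1920.5 CPM with C75 and 1908, 1944 and 1786 CPM with ETO (averaged log2 fold change 0.48 ± 0.03, adjusted p = 2.6e-14). MT-CO3, a subunit of cytochrome oxidase, stood at 3739, 3669.8 and 3882 CPM in DE, 5536, 5235 and 5762 CPM with C75 and 5005, 5033 and 4852 CPM with ETO (averaged log2 fold change 0.47 ± 0.03, adjusted p = 7.3e-17), and MT-ND1 changed by 0.44 with C75 and 0.54 with ETO. The 2 members outside the shared response, named after their values were seen, were MT-ND4 and MT-ND4L, which changed by 0.02 with C75 and 0.74 with ETO, and by 0.07 with C75 and 0.79 with ETO. Mitochondrial transcripts took between 2.87% and 4.45% of a library's counts, and the 13 genes summed to 28516 to 30949 CPM in DE, 33593 to 36869 CPM with C75 and 41466 to 43579.5 CPM with ETO. The 1-group fit called 3 of the 11.

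Nuclear genes of the respiratory chain, complex II and ATP synthase included, had more shared lower than shared higher members. Of 76 tested, 12 were shared lower (15.8%) and 2 shared higher (2.63%), with a median of −0.12, and the averaged contrast called 41 lower and 8 higher and left 27 not called. By inhibitor the median was −0.01 with C75 and −0.21 with ETO, and the summed level was 6295 to 6902 CPM in DE, 6204 to 6439 CPM with C75 and 5743 to 5837 CPM with ETO, so the C75 libraries overlapped DE. UQCRC1, a core subunit of complex III, stood at 354, 376 and 366 CPM in DE, 229.7, 234 and 229 CPM with C75 and 201, 195 and 188 CPM with ETO (averaged log2 fold change −0.78 ± 0.03, adjusted p = 7.8e-22), the largest shared fall of the list. NDUFB4 and NDUFA3, accessory subunits of complex I, changed by −0.64 with C75 and −0.48 with ETO, and by −0.39 with C75 and −0.54 with ETO. After correction for GC content and length the counts were 7 shared lower and 1 shared higher, and the median was −0.07. Of 77 mitochondrial ribosomal protein genes, 5 were shared higher (6.49%) and 1 shared lower (1.3%), beside 7.41% higher and 8.56% lower of all genes.

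A list of ribosome biogenesis factors and MYC targets had many shared higher members, and the ribosomal proteins had more shared lower members than higher. Ribosome biogenesis starts with transcription of ribosomal RNA by RNA polymerase I and goes on with processing in the nucleolus, and many of its genes are textbook MYC targets. Of 31 tested, 16 (51.6%) were shared higher and none shared lower, beside 7.41% higher and 8.56% lower of all genes. The averaged contrast called 25 higher and 1 lower, and the median was 0.33. The summed level was 3982 to 4207 CPM in DE, 4421 to 4531 CPM with C75 and 5209 to 5345 CPM with ETO.

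NOP14, of the small subunit processome, stood at 48.1, 49.7 and 51.7 CPM in DE, 66.7, 66.8 and 67.9 CPM with C75 and 70.0, 72.4 and 72.6 CPM with ETO (averaged log2 fold change 0.48 ± 0.04, adjusted p = 5.3e-12). RRS1, of 60S assembly, stood at 14.7, 16.6 and 17.6 CPM in DE, 22.5, 19.8 and 24.4 CPM with C75 and 23.3, 25.6 and 25.3 CPM with ETO (averaged log2 fold change 0.53 ± 0.07, adjusted p = 2.3e-07), and NOP16 at 13.3 ± 1.77 CPM in DE, 18.8 ± 0.387 CPM with C75 and 19.6 ± 1.61 CPM with ETO (SD, n = 3 each). For these 3 genes the inhibitors did not pass the test of a difference (adjusted p = 0.054, 0.076 and 0.51). The other 13 shared members had averaged log2 fold changes from 0.18 to 0.61, the extremes being NCL (nucleolin) and ODC1 (ornithine decarboxylase, a polyamine enzyme in the list as a MYC target). Among them were POLR1A and POLR1B, the 2 largest subunits of RNA polymerase I. MYC itself, named after its values were seen, moved opposite ways, by −0.84 with C75 and 1.52 with ETO. The 1-group fit called 7 of the 16.

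Cytosolic aminoacyl-tRNA synthetases, which charge tRNAs for translation, had 8 of 20 genes shared higher (40%) and none lower. Of all genes, 7.41% were shared higher and 8.56% shared lower. The averaged contrast called 17 of the 20 higher, and the median was 0.27. TARS, for threonine, stood at 158, 159 and 166 CPM in DE, 209.6, 202 and 202 CPM with C75 and 243, 244 and 244 CPM with ETO (averaged log2 fold change 0.47 ± 0.03, adjusted p = 3.2e-15). NARS, for asparagine, stood at 252, 248 and 263 CPM in DE, 324, 327 and 316 CPM with C75 and 369.8, 379 and 362 CPM with ETO (averaged log2 fold change 0.44 ± 0.03, adjusted p = 7.6e-15), and CARS, for cysteine, changed by 0.26 with C75 and 0.40 with ETO. In each of these genes the ETO libraries lay above the C75 libraries, which lay above DE. The test of C75 against ETO called all 8 shared members, 7 of them higher with ETO.

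Of 78 cytosolic ribosomal protein genes, 24 were shared lower (30.8%) and 2 shared higher (2.56%), beside 8.56% lower and 7.41% higher of all genes. The averaged contrast called 71 lower and 3 higher. The list's median was −0.21, or by inhibitor −0.37 with C75 and −0.07 with ETO. RPL35 stood at 448, 553 and 491 CPM in DE, 347, 362 and 350.4 CPM with C75 and 401, 404 and 415 CPM with ETO (averaged log2 fold change −0.39 ± 0.04, adjusted p = 6.7e-11), with C75 below ETO (C75 against ETO −0.20, adjusted p = 7.9e-05). RPS15 changed by −0.41 with C75 and −0.27 with ETO. Summed over the list, levels were 49909 to 54850.2 CPM in DE, 39926 to 41379 CPM with C75 and 49724 to 50718 CPM with ETO, so the C75 libraries lay below DE while the ETO libraries overlapped DE. The 2 higher genes were RPL26 and RPL17, at low counts for their class (13.6 ± 0.682 CPM in DE, 19.3 ± 1.29 CPM with C75 and 21.3 ± 1.15 CPM with ETO for RPL26). Ribosomal protein genes have many near-identical processed pseudogenes, so their counts are uncertain, and the 1-group fit called 3 of the 24.

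**Figure D4:**
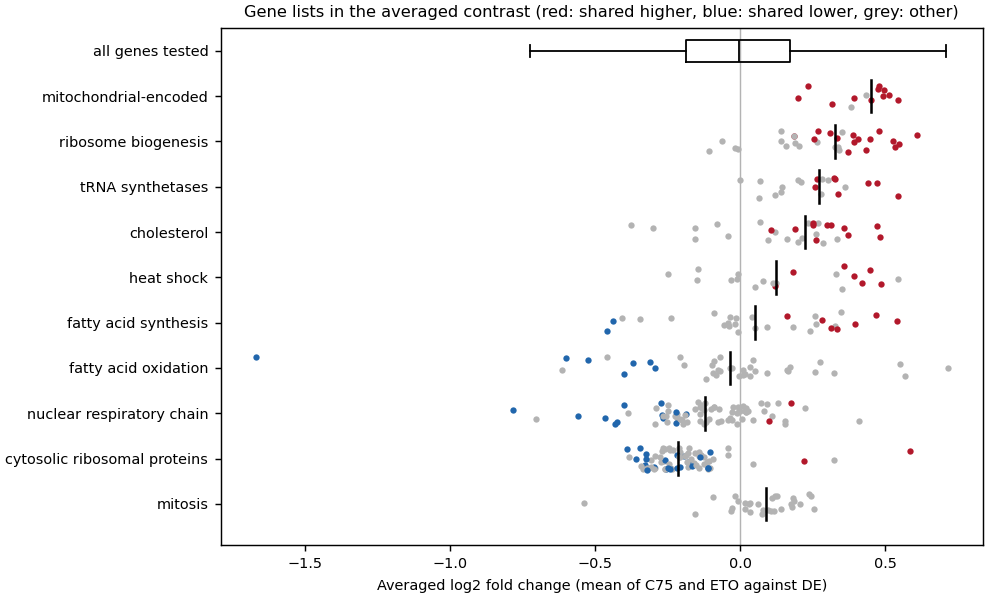
Points are genes, placed by the averaged log2 fold change, for 10 of the lists, with the list median as a black bar. Red and blue mark shared higher and shared lower genes, and the box at the top gives the median, quartiles and whiskers (1.5 times the quartile range) of all 14177 genes. The medians of the mitochondrial-encoded, ribosome biogenesis and tRNA synthetase genes lie right of 0 (0.45, 0.33 and 0.27), that of the ribosomal proteins lies left (−0.21), and the mitosis list holds no shared gene.

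The cytosolic heat shock list had 7 of 20 genes shared higher (35%) and none lower, beside 7.41% higher and 8.56% lower of all genes. The averaged contrast called 12 higher and 2 lower, and the list medians were 0.28 with C75 and 0.09 with ETO. Heat shock factors bind arrays of inverted GAA repeats, the heat shock element, upstream of chaperone genes. The 7 were HSPA8, HSPA4, HSP90AA1, HSP90AB1, HSPH1, CHORDC1 and BAG3, which encode constitutive HSP70 and HSP110 chaperones, both cytosolic HSP90 forms and their co-chaperones. The stress-induced HSPA1A, named after its values were seen, moved opposite ways, by 0.80 with C75 and −0.82 with ETO.

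Promoter sequence was searched for 8 motifs in the shared response and in several of the lists, and the heat shock sequences were chosen for printing after the matches were seen. RefSeq promoters (250 bases before to 50 bases after the start, GRCh38.p14) were found for all 7 and for 11150 of the 14177 genes tested, too few for a fair comparison of gene groups. The letters GAA, TTC and GAA in this order, each pair separated by any 2 bases (GAA NN TTC NN GAA), searched on both strands, occurred in 4 of the 7 promoters, in 6 of 19 promoters of the whole list (31.6%) and in 35 of the 11150 (0.314%). The SREBP motif TCAC N CCAC was in 0 of 7 matched promoters of the shared higher cholesterol genes. It was in 1 of 21 of the whole cholesterol list (4.76%) and in 120 of the 11150 (1.08%). The E-box CACGTG was in 5 of 12 matched promoters of the shared higher ribosome biogenesis genes (41.7%) and in 1040 of the 11150 (9.33%). The whole ribosome biogenesis list, which includes MYC targets by choice, had it in 9 of 24 (37.5%), so it did not mark out the shared members. A match describes the letters in this window and is no evidence of binding. The 250 bases before the start of 3 of the heat shock genes follow, 5′ to 3′ on the gene's strand, with matches in capitals, for chr11:123062137-123062386, minus strand (HSPA8), chr14:102087045-102087294, minus strand (HSP90AA1) and chr11:90223050-90223299, minus strand (CHORDC1).
HSPA8: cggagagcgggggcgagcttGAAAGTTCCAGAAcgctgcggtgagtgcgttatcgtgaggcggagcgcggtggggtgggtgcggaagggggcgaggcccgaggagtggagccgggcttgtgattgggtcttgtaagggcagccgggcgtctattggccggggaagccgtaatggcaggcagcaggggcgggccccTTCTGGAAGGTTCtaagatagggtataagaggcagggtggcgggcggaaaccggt
HSP90AA1: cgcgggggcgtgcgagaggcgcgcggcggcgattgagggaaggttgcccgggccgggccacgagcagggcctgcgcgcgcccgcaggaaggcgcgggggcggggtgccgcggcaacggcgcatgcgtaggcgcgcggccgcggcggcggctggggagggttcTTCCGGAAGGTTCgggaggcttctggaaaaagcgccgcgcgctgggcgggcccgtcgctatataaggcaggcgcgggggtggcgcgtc
CHORDC1: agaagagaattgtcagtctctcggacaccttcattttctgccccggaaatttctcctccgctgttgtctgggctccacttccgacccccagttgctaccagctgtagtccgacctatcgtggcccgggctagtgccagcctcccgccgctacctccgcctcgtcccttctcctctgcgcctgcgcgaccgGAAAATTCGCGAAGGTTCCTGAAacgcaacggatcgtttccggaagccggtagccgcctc

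HSPA8 holds 2 matches, which begin 230 and 55 bases before the start. HSP90AA1 holds 1, beginning 88 bases before, and CHORDC1 holds 3 that overlap. HSP90AB1 was the fourth promoter with a match. HSPA8, the constitutive HSP70, stood at 1189, 1195 and 1182 CPM in DE, 1931, 1929.9 and 1915 CPM with C75 and 1429.9, 1465 and 1412 CPM with ETO (averaged log2 fold change 0.48 ± 0.02, adjusted p = 3.0e-18), higher with C75 than with ETO (C75 against ETO 0.42, adjusted p = 3.2e-16). HSP90AA1 stood at 1604, 1670.3 and 1682 CPM in DE, 2103, 2225 and 2129 CPM with C75 and 2251, 2303 and 2255 CPM with ETO (averaged log2 fold change 0.42 ± 0.03, adjusted p = 5.6e-16), with C75 slightly below ETO (C75 against ETO −0.08, adjusted p = 0.015). CHORDC1, an HSP90 co-chaperone, stood at 62.6, 60.5 and 62.8 CPM in DE, 71.0, 76.7 and 72.1 CPM with C75 and 92.7, 90.8 and 87.1 CPM with ETO, higher with ETO. The 1-group fit called 1 of the 7, HSP90AA1 (adjusted p = 0.0052), and the list sum was 7313 to 7604 CPM in DE, 9305 to 9598 CPM with C75 and 9031 to 9175 CPM with ETO.

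**Figure D5:**
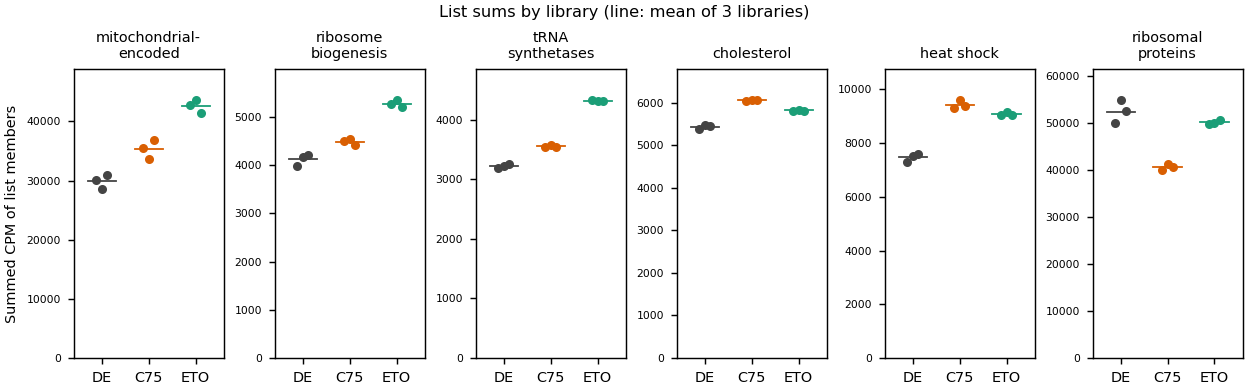
Each point is 1 library and gives the summed CPM of a list's members, with a line at the mean of the 3 libraries of a group. The first 5 lists have all 6 inhibitor libraries above DE, and the ribosomal protein sum is lower with C75 but overlaps DE with ETO. The lists drawn are a selection from the 63. Sums of others, among them the ATF4 and fatty acid synthesis lists, also lay above DE in all 6 inhibitor libraries.

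Of 24 ATF4 targets, the averaged contrast called 16 higher and 3 lower, but 3 were shared higher (12.5%) and 2 shared lower (8.33%), beside 7.41% higher and 8.56% lower of all genes, and the list medians were −0.26 with C75 and 0.65 with ETO. The summed level was 3300 to 3365 CPM in DE, 4100 to 4238 CPM with C75 and 4513 to 4621 CPM with ETO. With C75 the sum therefore lay above DE while the median was below 0. TRIB3, a pseudokinase of the integrated stress response, stood at 7.33 ± 1.47 CPM in DE, 11.3 ± 0.611 CPM with C75 and 10.3 ± 0.255 CPM with ETO, and the large neutral amino acid transporter gene SLC7A5 at 1219 ± 33.0 CPM in DE, 2032 ± 73.3 CPM with C75 and 1356 ± 42.6 CPM with ETO (SD, n = 3 each). ATF4 transcript itself changed by 0.24 with C75 and 0.12 with ETO. The 1-group fit called none of the 3.

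Of 21 serine and one-carbon genes, 4 were shared higher (19%) and none shared lower, beside 7.41% higher and 8.56% lower of all genes. The list medians were −0.09 with C75 and 0.63 with ETO. The summed level was 1334 to 1374 CPM in DE, 1285 to 1341 CPM with C75 and 2383 to 2434 CPM with ETO. The C75 sums overlapped DE. MAT2A, which makes S-adenosylmethionine, stood at 96.7, 104 and 99.3 CPM in DE, 192, 194 and 183 CPM with C75 and 153, 153 and 142 CPM with ETO (averaged log2 fold change 0.76 ± 0.04, adjusted p = 7.6e-19). SHMT1 and MTHFD1L, folate enzymes of the cytosol and of mitochondria, changed by 0.27 with C75 and 0.74 with ETO, and by 0.18 with C75 and 0.74 with ETO. Among 23 NRF2 genes, 3 were shared higher (13%) and 1 shared lower (4.35%), beside 7.41% higher and 8.56% lower of all genes. GCLM encodes a subunit of the enzyme that starts glutathione synthesis. It stood at 31.9 ± 1.82 CPM in DE, 52.7 ± 1.74 CPM with C75 and 44.4 ± 0.556 CPM with ETO, and NQO1 changed by 0.70 with C75 and 0.13 with ETO. OSGIN1, an oxidative stress gene, was the lower one, at 4.23, 4.57 and 4.23 CPM in DE, 0.902, 1.10 and 1.10 CPM with C75 and 1.27, 0.854 and 0.661 CPM with ETO (averaged log2 fold change −2.13 ± 0.19, adjusted p = 2.3e-11). The endoplasmic reticulum list had 2 of 22 shared higher, DNAJC3 and CANX (0.42 and 0.34), and 2 shared lower, CRELD1 and SEL1L (−0.56 and −0.30). At 9.09% in each direction, these counts were near the shares of all genes. No gene of the 10 tested in a list of metallothioneins and zinc transport was shared, and the list medians were −0.73 with C75 and 1.98 with ETO.

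Of 27 glycolysis genes, 6 were shared higher (22.2%) and 3 shared lower (11.1%), beside 7.41% higher and 8.56% lower of all genes. With upper-quartile scaling or library totals alone, 4 were shared higher and 4 shared lower. The list medians were −0.09 with C75 and 0.23 with ETO. The summed level was 12690 to 13005 CPM in DE, 13880.5 to 14068 CPM with C75 and 12202 to 12255 CPM with ETO. It was therefore above DE with C75 and below DE with ETO. PFKFB3, which makes the activator of phosphofructokinase, stood at 46.6 ± 0.896 CPM in DE, 62.8 ± 1.95 CPM with C75 and 71.6 ± 0.930 CPM with ETO (averaged log2 fold change 0.52 ± 0.04, adjusted p = 7.4e-13), and GPI changed by 0.49 with C75 and 0.31 with ETO. The neuronal-type glucose transporter gene SLC2A3 was lower, at 3413, 3399.8 and 3480.1 CPM in DE, 2823, 2859 and 2809 CPM with C75 and 2255, 2265 and 2263 CPM with ETO (averaged log2 fold change −0.44 ± 0.02, adjusted p = 3.6e-18), as were PFKL (−0.46) and the lactate exporter gene SLC16A3 (−0.37). For SLC16A3 the ETO change alone was −0.08 (adjusted p = 0.23).

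SPRY4, ETV4, ETV5 and DUSP6 rose with both inhibitors. Fibroblast growth factor signalling through ERK is known to raise SPRY, DUSP and ETV genes, which in turn damp or carry the signal. Of 23 FGF and ERK genes, 4 were shared higher (17.4%) and 2 shared lower (8.7%), beside 7.41% higher and 8.56% lower of all genes. The averaged contrast called as many higher as lower, 8 each, and 7 were not called. The summed level was 3645 to 3703 CPM in DE, 4165 to 4426 CPM with C75 and 2643 to 2681 CPM with ETO, so it was above DE with C75 and below DE with ETO. SPRY4, a feedback inhibitor, stood at 67.4, 62.7 and 64.9 CPM in DE, 117, 118 and 117 CPM with C75 and 221, 214 and 220.2 CPM with ETO (averaged log2 fold change 1.30 ± 0.04, adjusted p = 1.5e-25). ETV4 stood at 57.9, 55.9 and 56.3 CPM in DE, 90.3, 89.0 and 92.5 CPM with C75 and 108, 101 and 104 CPM with ETO (averaged log2 fold change 0.78 ± 0.04, adjusted p = 2.8e-18), and ETV5 changed by 0.61 with C75 and 1.04 with ETO. The test of C75 against ETO called all 4, each higher with ETO. FGFR2 and the feedback gene DUSP5 were shared lower (−0.35 and −0.37), and the 1-group fit called 3 of the 4 higher genes.

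Among 27 WNT genes, 4 were shared higher (14.8%) and 2 shared lower (7.41%), beside 7.41% higher and 8.56% lower of all genes. DKK1, a secreted WNT antagonist, stood at 14.5, 15.4 and 14.7 CPM in DE, 46.8, 45.7 and 45.3 CPM with C75 and 28.7, 24.8 and 28.4 CPM with ETO (averaged log2 fold change 1.25 ± 0.06, adjusted p = 6.0e-18), and NKD1, an intracellular antagonist and feedback target, at 20.8, 20.1 and 23.2 CPM in DE, 34.5, 30.3 and 35.9 CPM with C75 and 40.2, 38.8 and 39.3 CPM with ETO (averaged log2 fold change 0.77 ± 0.06, adjusted p = 1.3e-12). TCF7 was higher (0.32). TCF7L1, a repressor of WNT targets in pluripotent cells, and SFRP1 were lower (−0.20 and −0.93).

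In the NODAL list of 19 genes, 2 were shared higher (10.5%) and 2 shared lower (10.5%), near the 7.41% and 8.56% of all genes. MIXL1, a streak homeobox gene, stood at 557, 575 and 561 CPM in DE, 743, 715 and 768 CPM with C75 and 723, 692 and 718 CPM with ETO (averaged log2 fold change 0.36 ± 0.03, adjusted p = 2.3e-13; C75 against ETO 0.06, adjusted p = 0.069), and GDF3 was higher by 0.43. FOXH1, the SMAD partner that carries the activin signal, was lower (−0.20 with C75 and −0.85 with ETO). BMP2 changed by −0.24 with C75 and −0.85 with ETO, and the inhibitory SMAD6 by −0.17 with C75 and −0.54 with ETO. Among 22 BMP genes, 2 were shared higher (9.09%) and 2 shared lower (9.09%), also near those shares. NOG, which encodes the antagonist noggin, was higher at 0.570, 0.857 and 0.846 CPM in DE, 2.37, 2.86 and 2.80 CPM with C75 and 1.86, 2.56 and 1.54 CPM with ETO (averaged log2 fold change 1.62 ± 0.25, adjusted p = 1.9e-06). In the Notch list LFNG, a glycosyltransferase that tunes the receptor, was higher by 0.98. HES4, a Notch target, stood at 35.5, 35.3 and 33.7 CPM in DE, 20.0, 17.7 and 20.9 CPM with C75 and 7.45, 8.09 and 9.91 CPM with ETO, lower in all 6 libraries.

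Matrix and adhesion genes changed in both directions. Of 43 integrin, laminin and basement membrane genes, 8 were shared higher (18.6%) and 3 shared lower (6.98%), beside 7.41% higher and 8.56% lower of all genes. ITGA9 and FBLN5 rose with ITGA3 (0.68 with C75 and 0.41 with ETO for ITGA9, and 0.51 with C75 and 0.91 with ETO for FBLN5). FN1, fibronectin, stood at 1129, 1007 and 1016 CPM in DE, 699, 662 and 679 CPM with C75 and 827, 853 and 842 CPM with ETO (averaged log2 fold change −0.47 ± 0.03, adjusted p = 1.3e-15), and LAMA1, a chain of the first basement membrane laminin, changed by −0.31 with C75 and −0.28 with ETO. CDH4, retinal cadherin, fell to 5.24, 5.50 and 4.61 CPM with C75 and 14.0, 15.9 and 16.9 CPM with ETO from 26.7, 25.4 and 25.7 CPM. The collagen cross-linking enzyme gene LOX stood at 1.95, 2.63 and 1.69 CPM in DE, 13.9, 13.9 and 12.5 CPM with C75 and 3.45, 3.77 and 4.08 CPM with ETO, most of its rise being with C75.

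Of 63 axon guidance genes, 9 were shared lower (14.3%) and 3 shared higher (4.76%), beside 8.56% lower and 7.41% higher of all genes. SEMA5A stood at 267, 251 and 244 CPM in DE, 157, 160.1 and 160.1 CPM with C75 and 171, 173 and 176 CPM with ETO (averaged log2 fold change −0.61 ± 0.03, adjusted p = 3.6e-18), and NTN4, a netrin, changed by −0.36 with C75 and −1.02 with ETO. NRP2, a semaphorin co-receptor, was higher, at 161, 149.8 and 155 CPM in DE, 239.6, 229 and 237 CPM with C75 and 221, 228 and 225 CPM with ETO (averaged log2 fold change 0.56 ± 0.03, adjusted p = 7.9e-17), and UNC5B, a netrin receptor, changed by 0.61 with C75 and 1.88 with ETO.

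None of 30 mitosis genes was in the shared response in either direction, although the averaged contrast called 15 higher and 3 lower, and the list medians were −0.35 with C75 and 0.46 with ETO. Of 34 replication genes, 4 were shared higher (11.8%) and 1 shared lower (2.94%), beside 7.41% higher and 8.56% lower of all genes, with RFC3 among the higher at 0.33. Of 32 histone genes, 7 were shared higher (21.9%) and 1 shared lower (3.12%), beside the same shares of all genes. Their summed level was 2474 to 2656 CPM in DE, 2751 to 2796 CPM with C75 and 2098 to 2124 CPM with ETO. The histone sum was therefore above DE with C75 and below DE with ETO. HIST1H2AC stood at 5.72 ± 0.475 CPM in DE, 10.6 ± 1.10 CPM with C75 and 8.54 ± 1.18 CPM with ETO, and H1F0, a replacement linker histone, was lower at 186, 191 and 193 CPM in DE, 90.8, 91.9 and 89.6 CPM with C75 and 118, 122 and 117 CPM with ETO (averaged log2 fold change −0.87 ± 0.03, adjusted p = 2.8e-22). Most histone transcripts lack a poly(A) tail, and the RNA selection is not given in the sources used here.

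Most stage markers moved opposite ways with the inhibitors. SOX17 stood at 769, 777 and 733 CPM in DE, 791, 788 and 865 CPM with C75 and 234, 218 and 225 CPM with ETO, GATA6 changed by 0.67 with C75 and −1.31 with ETO, CXCR4 by 1.81 with C75 and −2.29 with ETO, POU5F1 by −2.26 with C75 and 1.95 with ETO, SOX2 by −2.76 with C75 and 1.92 with ETO and TBXT by −2.42 with C75 and 2.57 with ETO. None of these 6 was in the shared response. Of 19 definitive endoderm markers, 1 was shared higher and 1 shared lower (5.26% each), beside 7.41% higher and 8.56% lower of all genes. The averaged contrast called 14 lower, beside 26.8% of all genes, but the list medians were 0.31 with C75 and −0.94 with ETO. Their summed level was 10792 to 11245 CPM in DE, 16823 to 17227 CPM with C75 and 5763 to 5878 CPM with ETO. LHX1 stood at 70.5, 65.3 and 64.3 CPM in DE, 188, 174 and 182 CPM with C75 and 99.9, 98.4 and 106 CPM with ETO (averaged log2 fold change 1.02 ± 0.04, adjusted p = 3.1e-21), and FOXA3 changed by −0.13 with C75 and −1.44 with ETO (adjusted p = 0.072 with C75 alone). Of 21 pluripotency genes, ZFP42 and GDF3 were shared higher and LIN28A shared lower (0.76, 0.43 and −0.34). ZFP42 stood at 48.0, 48.5 and 50.7 CPM in DE, 59.7, 59.6 and 58.5 CPM with C75 and 116, 116 and 116 CPM with ETO.

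Of 8 visceral endoderm, liver and gut markers tested, none were shared higher and 2 shared lower (25%), and their summed level was 112 to 119 CPM in DE, 97.9 to 102 CPM with C75 and 58.9 to 63.0 CPM with ETO, below DE in all 6 inhibitor libraries. Of 27 neuronal genes, 1 was shared higher (3.7%) and 3 shared lower (11.1%), and of 10 fibroblast and muscle markers, 2 were shared higher (20%) and none shared lower, beside 7.41% higher and 8.56% lower of all genes. GATA3, of trophoblast and amnion, was lower at 30.2, 28.1 and 29.4 CPM in DE, 15.7, 14.7 and 15.0 CPM with C75 and 17.8, 16.5 and 19.2 CPM with ETO (averaged log2 fold change −0.83 ± 0.06, adjusted p = 2.1e-13). Summed over the list, trophoblast and amnion markers were at 50.6 to 54.1 CPM in DE, 30.1 to 33.6 CPM with C75 and 73.0 to 80.8 CPM with ETO, and endothelium and blood markers at 11.2 to 14.3 CPM in DE, 3.38 to 3.91 CPM with C75 and 25.3 to 27.8 CPM with ETO. Summed neuronal markers were at 797 to 815 CPM in DE, 974 to 1015 CPM with C75 and 1014 to 1030.2 CPM with ETO, and fibroblast and muscle markers at 1517 to 1583 CPM in DE, 1806 to 1844 CPM with C75 and 2121 to 2137 CPM with ETO. The neuronal list medians were −0.55 with C75 and 0.65 with ETO on the log2 scale. Those of the fibroblast and muscle list were −0.05 with C75 and 0.86 with ETO. With C75 the sums therefore lay above DE while both medians were below 0. Of the visceral endoderm, liver and gut markers 8 of 16 passed the filter on low counts. Of the other lists, in the order of their sums, 7 of 14, 3 of 12, 27 of 32 and 10 of 13 genes passed the filter on low counts. Their part in the shared response was not tested. In bulk RNA, fewer cells of a type and less RNA per cell cannot be told apart.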

How the data were processed

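The authors deposited raw counts per gene symbol for 9 libraries, with a gene length column (in bases). The submitters' processing notes name HISAT2 2.1.0, featureCounts 1.6.4 and GRCh38. The strand setting, the annotation and how RNA was selected are not given in the labels. All 19907 symbols matched GENCODE release 29, used for positions, and 99.84% had its merged exon length.

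From the deposited counts, edgeR 4.0.16 (R 4.3.3) kept 14177 genes by filterByExpr (99.962% of counts), scaled by TMM and fitted 3 groups over 9 libraries by quasi-likelihood (common biological coefficient of variation 0.0335). The averaged contrast weighted each inhibitor 0.5. P-values were Benjamini-Hochberg adjusted over all genes tested, and log2 fold changes are given ± SE. The fit was tested on simulated data. C75 minus DE and ETO minus DE share the DE libraries. CPM is TMM-scaled.

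The members and the 63 gene lists were chosen with earlier results of these data known. Genes named were FASN, CPT1A, 6 stage markers, the 12 shared genes per direction with the largest smaller change (mean of at least 5 CPM), and up to 3 shared members per list and direction, clone-named and Y-linked genes left out. Members listed to complete a count, or at low levels (OSGIN1, NOG, LFNG, RARB), fall outside this rule and were chosen after their values were seen. An opposite-strand gene overlaps 39 of the 221 genes the rule names. Alternatives were scaling, filters, DESeq2 1.42.0, a 1-group fit of the inhibitors, a replicate block, GC content and length, glmTreat, and leaving out each library. A few genes that the rule names are not reported here.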

Additional observations from a re-analysis of the deposited data

How the results depend on the processing

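With the 6 inhibitor libraries as 1 group, the fit called 272 genes higher and 323 lower, and all of them were in the shared response; there CXCR4 was at 0.89, POU5F1 at 1.03 and SOX2 at 0.97 (adjusted p = 0.743, 0.708 and 0.745), against −0.24, −0.15 and −0.42. That fit takes the fold of the pooled mean. glmTreat with a limit of 0.5 left 199 genes higher and 390 lower (shared: 146 and 226). Leaving out each library gave 2834 to 3317 genes called higher, 3270 to 3877 called lower, 1111 to 1341 above DE, 1310 to 1557 below DE, 1048 to 1209 shared higher and 1255 to 1435 shared lower. The order rule is easier to meet with fewer libraries, so these counts alone do not measure stability. Of the original shared genes, 954 to 1038 of 1050 higher and 1140 to 1206 of 1213 lower were kept. A gene that meets the order rule with all libraries also meets it with fewer, apart from rescaling. The kept counts were therefore largely fixed in advance and do not measure stability either. DESeq2 gave 1032 shared higher and 1170 shared lower genes, and library totals alone 861 and 1400. The GC content and length correction gave 1098 and 1174, holding 773 and 923 of the original genes. With the replicate block, 1045 and 1213 genes were shared. Deviations of same-numbered libraries from their group means had correlations of −0.027 to 0.05 over the genes tested. Counting noise is part of these deviations, so the values cannot tell whether same-numbered libraries share a culture or batch. Of 221 named genes, 217 kept their direction in every alternative, and of 220 called, 209 were still called with each library left out and 98 in the 1-group fit. Nearly all of the named genes were chosen for their order and size of change in the same libraries, so these counts do not measure stability. The 3 libraries per group and unstated doses limit every comparison.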

Other observations

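Several further gene groups had shared members. Among 26 amino acid transporter genes, SLC38A5, a glutamine carrier, stood at 69.8, 65.5 and 67.5 CPM in DE, 36.9, 32.8 and 34.3 CPM with C75 and 39.2, 37.6 and 40.0 CPM with ETO (averaged log2 fold change −0.88 ± 0.04, adjusted p = 5.9e-18), and SLC43A2 was higher by 0.46. ASS1, argininosuccinate synthetase, stood at 35.1 ± 1.11 CPM in DE, 46.1 ± 3.02 CPM with C75 and 65.2 ± 3.65 CPM with ETO (SD, n = 3 each). In the p53 list BBC3, which encodes the pro-apoptotic protein PUMA, stood at 66.7, 69.8 and 59.1 CPM in DE, 31.6, 29.9 and 31.6 CPM with C75 and 43.8, 36.9 and 42.9 CPM with ETO (averaged log2 fold change −0.87 ± 0.05, adjusted p = 8.8e-16), while PLK3 was higher by 0.71. XIAP, an inhibitor of caspases, changed by −0.31 with C75 and −0.32 with ETO (C75 against ETO 0.01, adjusted p = 0.81).

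The restriction factor gene IFITM3 stood at 397, 398 and 379 CPM in DE, 274, 262 and 284 CPM with C75 and 232, 234 and 233 CPM with ETO (averaged log2 fold change −0.63 ± 0.03, adjusted p = 2.6e-19), and JUN changed by −0.65 with C75 and −0.35 with ETO. The S100 genes S100A14 and S100A16 were lower, the latter mostly with ETO (−0.19 with C75 and −2.46 with ETO). Of 16 retinoic acid genes, 2 were shared higher (12.5%) and 4 shared lower (25%), beside 7.41% higher and 8.56% lower of all genes. The 1-group fit called none of the 4, and after correction for GC content and length 1 was shared higher and 3 shared lower. Among the 4, CRABP2, a retinoic acid carrier, changed by −1.16 with C75 and −0.16 with ETO (adjusted p = 2.1e-04 with ETO alone). RARB, which encodes a retinoic acid receptor and is a direct target of the pathway, was lower at 6.36, 6.23 and 5.82 CPM in DE, 2.54, 2.64 and 3.57 CPM with C75 and 0.545, 0.603 and 0.936 CPM with ETO (averaged log2 fold change −2.11 ± 0.17, adjusted p = 7.6e-13). The pyruvate carrier and dehydrogenase genes MPC1 and DLAT were higher (0.35 and 0.26), and SUCLG2 and SDHC of the citric acid cycle were lower (−0.35 and −0.27). HDAC1, a histone deacetylase, changed by −0.22 with C75 and −0.47 with ETO. No member of 13 hedgehog genes was shared, and 1 of 36 proteasome genes was, PSMB6 (−0.38).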
